A study of Mus musculus with 18 samples.

Results

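The transporters described here are the members of 8 families of solute carriers (Slc), the membrane proteins that move small molecules across the plasma membrane and the membranes of organelles. They were taken by symbol as every gene of the count tables whose name begins with Slc1a, Slc3a, Slc6a, Slc7a, Slc14a, Slc36a, Slc38a or Slc43a. Slc7a11, Slc38a5 and antisense genes whose symbol ends in "os" were left out. This gave 63 genes of the 53801 mouse genes listed. The rule uses symbols only, but it was set with earlier results of these data known. Of the 63, 44 had enough reads to be tested, among 18364 genes, and 19 did not.

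Amino acids enter islet cells as fuel, as building blocks and, for some, as stimuli of insulin and glucagon secretion. Slc1 carriers couple glutamate to sodium or exchange neutral amino acids, and Slc6 carriers use sodium and chloride. Slc7 light chains pair with a heavy chain of the Slc3 family, Slc3a2 or Slc3a1, and exchange 1 amino acid for another, whereas the cationic carriers of the same family work alone. Slc38 carriers bring in glutamine and other small neutral amino acids, Slc36 carriers use protons, and Slc43 carriers are facilitative. Slc14 genes encode urea channels, best known from the kidney. At the lysosome, exporters such as Slc36a1 and Slc38a7 release amino acids from degraded protein, and the Rag GTPases and their regulators sense those amino acids for the kinase complex mTORC1.

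RNA was sequenced from isolated whole islets of 5-week-old mice kept on normal chow. Males were wild type (WT, 4 libraries) or heterozygous for the S64F allele of MafA (S64F/+, 4 libraries), and females were WT (5 libraries) or S64F/+ (5 libraries). MAFA is a transcription factor of mature beta cells, and the series title ties the S64F variant to male-biased beta cell dysfunction, so each comparison asks how the allele or sex changed the carriers. The labels do not say that replicates came from separate animals or how the allele was made, so a p-value here reflects library-to-library spread, which may be technical. The gene counts do not show which allele was transcribed, and the genotype labels were not checked.

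Libraries held between 19317971 and 108659014 counts. The insulin genes Ins1 and Ins2 took 12.7% to 25.9% of the counts of a library, and alpha cell markers were present in each, so the islet label held. Values per library are CPM, that is counts scaled to a common library size, here by the trimmed mean of M values (TMM), listed by replicate number from 1. The edgeR quasi-likelihood test was fitted to all 18 libraries, a gene was called at an adjusted p under 0.05, and log2 fold changes are followed by their standard error (SE).

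Some libraries stood apart before any comparison. Male WT replicate 2 and male S64F/+ replicate 3 held transcripts of intestinal epithelium: 15 of 16 such genes, a list drawn up after the data were seen, were higher in both than in all 16 other libraries. Their summed level was 1301 and 1793 CPM, against 64.7 to 177 CPM elsewhere. Female WT replicates 4 and 5 and female S64F/+ replicates 4 and 5 held more kidney tubule transcripts, summing to 6.80 to 8.71 CPM against 0.542 to 1.87 CPM in the other 14. Of the 5 kidney genes, 3 were higher in all 4 of these libraries than in all 14 others. Results that rest on these libraries are given with and without them.

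Slc14a2 encodes UT-A, the urea channel of the kidney collecting duct, and it had the largest fold change of the tested carriers in both sexes. In male WT islets it was at 4.92, 6.01, 4.32 and 3.95 CPM, and in male S64F/+ islets at 0.599, 0.587, 0.466 and 0.22 CPM. In female WT islets it was at 4.26, 3.26, 1.81, 5.14 and 6.85 CPM, and in female S64F/+ islets at 0.43, 0.309, 0.249, 0.481 and 0.641 CPM. Every S64F/+ library lay below every WT library of either sex.

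The group means were 4.80 ± 0.90 (SD, n = 4) and 0.468 ± 0.18 CPM (SD, n = 4) in males, a 10.2-fold difference. They were 4.26 ± 1.90 (SD, n = 5) and 0.422 ± 0.15 CPM (SD, n = 5) in females, a 9.71-fold difference. Slc14a2 fell by 3.35 on the log2 scale in males (SE 0.38, edgeR adjusted p = 5.05e-06) and by 3.28 in females (SE 0.34, edgeR adjusted p = 2.38e-06). The male effect minus the female effect was -0.07 (SE 0.49, edgeR adjusted p = 0.951), which did not pass the test. Leaving out any 1 library kept the log2 fold change between -3.50 and -3.12 in males and between -3.48 and -3.05 in females. Without the 4 female libraries with kidney transcripts the female value was -3.20 (edgeR adjusted p = 0.000261), and without the 2 male libraries with intestinal transcripts the male value was -3.21 (edgeR adjusted p = 0.000115).

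Beta cell markers also differed. In males 9 of 10 fell, and their summed level was 214095 to 292171 CPM in WT and 128106 to 142752 CPM in S64F/+ islets. In females 8 of 10 fell, and the sums of 169070 to 309677 and 133555 to 245876 CPM overlapped. In whole islets, fewer cells of a type and less RNA per cell cannot be told apart, and the part of the beta cell markers in the Slc14a2 result was not tested. The urea channel of red cells and vessels, Slc14a1, was too scarce for the test, with 4 counts over the male WT and 53 over the male S64F/+ libraries. Its level ran from 0 to 0.0665 CPM in the former and from 0.154 to 0.587 CPM in the latter. Without the filter on low counts, Slc14a1 was higher in male S64F/+ islets (3.02, edgeR adjusted p = 0.0265). The annotation has 3 genes on the opposite strand within Slc14a2, and whether the counting used strand is not stated.

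The plot of carrier transcripts by group shows Slc14a2 beside 7 other carriers described next.

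**Figure D1:**
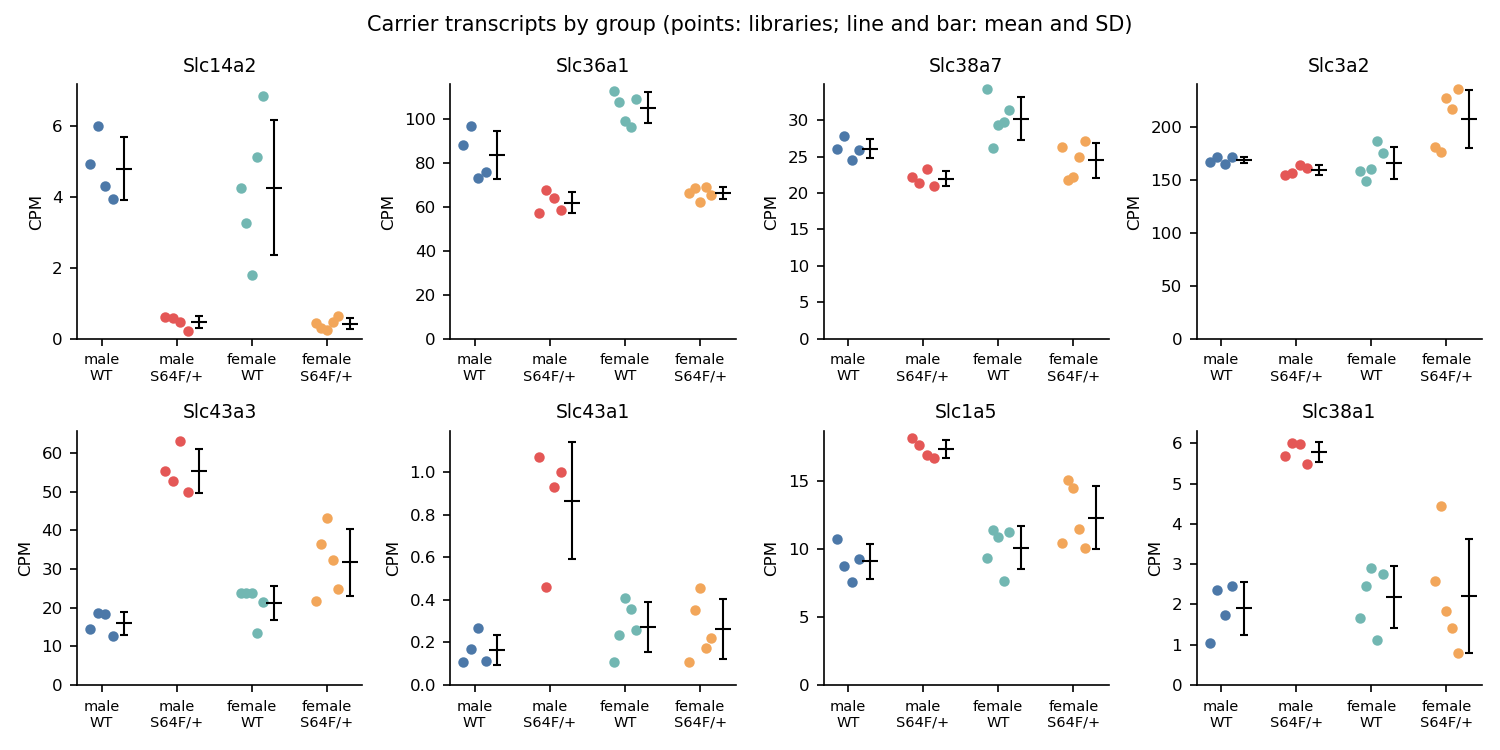
Level of 8 carriers in each library (y axis, TMM-scaled CPM) for the 4 groups on the x axis, with points for libraries and a line and bar for the mean and SD of 4 or 5 libraries. The S64F/+ libraries of both sexes lie below all WT libraries of the same sex for Slc14a2 and Slc36a1, and the male S64F/+ libraries lie above the male WT libraries for Slc43a3, Slc43a1, Slc1a5 and Slc38a1.

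Over all carriers, 10 of the 44 tested were called in males, 7 higher and 3 lower in S64F/+ islets. That is 22.7%, against 27.6% of all tested genes (15.4% higher and 12.3% lower). In females 8 were called, 3 higher and 5 lower, which is 18.2% against 21.2% of all genes (10.2% higher and 11% lower). Both shares lay near those of all genes. The median log2 fold change of the 44 was 0.18 in males and -0.04 in females, beside -0.03 and 0.02 over all genes. The ranges of the WT and S64F/+ libraries were apart for 17 carriers in males, 10 higher and 7 lower, where 35.1% of all genes were apart (17.8% higher and 17.3% lower). In females they were apart for 4 carriers, 1 higher and 3 lower, where 11.6% of all genes were (5.28% higher and 6.36% lower). Called in both sexes, and in the same direction, were Slc14a2, Slc36a1, Slc38a7 and Slc43a3. That is 9.09% of the 44, and the share over all genes was not counted.

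The carriers of the lysosomal membrane came next. Slc36a1 encodes PAT1, which carries small amino acids out of lysosomes together with protons. Slc38a7 encodes SNAT7, the lysosomal exporter of glutamine and asparagine. Their promoters are shown as those of the lysosomal carriers called in both sexes, with Fnip1 and Rragd of lysosomal amino acid sensing beside them, 1 with and 1 without CACGTG, the core of the sites bound by TFEB, TFE3, USF and related factors. Each line gives 250 bases before and 30 after the start site in RefSeq (GRCm38.p6), 5′ to 3′ on the strand of the gene, with CACGTG in capitals.
Slc36a1, chr11:55204090-55204369, plus strand: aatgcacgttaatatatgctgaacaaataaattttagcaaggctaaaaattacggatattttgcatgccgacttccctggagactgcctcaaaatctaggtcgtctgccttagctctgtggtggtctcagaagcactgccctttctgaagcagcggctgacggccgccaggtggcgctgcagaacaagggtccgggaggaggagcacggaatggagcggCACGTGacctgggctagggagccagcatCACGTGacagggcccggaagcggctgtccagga
Slc38a7, chr8:95853462-95853741, minus strand: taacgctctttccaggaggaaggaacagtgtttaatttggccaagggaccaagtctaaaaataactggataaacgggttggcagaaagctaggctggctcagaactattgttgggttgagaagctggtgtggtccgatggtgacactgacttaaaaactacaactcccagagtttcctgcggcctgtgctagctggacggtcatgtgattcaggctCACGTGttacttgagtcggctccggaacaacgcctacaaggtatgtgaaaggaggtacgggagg
Fnip1, chr11:54437929-54438208, plus strand: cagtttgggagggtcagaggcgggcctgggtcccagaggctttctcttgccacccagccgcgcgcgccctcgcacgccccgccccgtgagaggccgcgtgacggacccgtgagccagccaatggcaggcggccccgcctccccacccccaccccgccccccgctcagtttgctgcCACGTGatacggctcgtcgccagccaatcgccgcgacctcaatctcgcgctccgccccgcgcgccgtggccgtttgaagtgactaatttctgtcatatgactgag
Rragd, chr4:32982748-32983027, plus strand: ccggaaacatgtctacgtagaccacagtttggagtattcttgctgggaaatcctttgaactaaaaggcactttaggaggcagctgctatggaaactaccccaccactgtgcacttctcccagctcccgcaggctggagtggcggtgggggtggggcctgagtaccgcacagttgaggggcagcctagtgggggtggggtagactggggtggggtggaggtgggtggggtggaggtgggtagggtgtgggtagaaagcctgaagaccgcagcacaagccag

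The Slc36a1 window holds CACGTG at -31 and at -3 from the start site, the Slc38a7 window at -34 and the Fnip1 window at -75. CACGTG reads the same on both strands. It was searched after the data were seen, in windows of 250 bases before and 50 after the start, and it occurred in 8 of 64 promoters of 43 carriers (12.5%) and in 7.15% of all 32851 promoters. TGATGNAA, the core of ATF4 composite sites, was in 4 of the 64 (6.25%, against 3.97% of all), and TGCTGAC, a core of MAF sites, in 1 of the 64 (1.56%, against 4.67%). Both strands were searched, and none of the 3 motifs is contained in another. Promoters on chromosome 18, Slc14a2 included, were left out. A link between CACGTG and the direction of change was not tested. The windows of Flcn, Fnip2, Rragd and Ctns, which fell in both sexes, hold none. Slc43a1, which rose in males, holds it, as do Slc7a14 and Slc6a16, which were not called in either sex, and Slc1a6, Slc1a7 and Slc6a3, which were too scarce to test. A match describes letters in a window and shows no binding, and a window without one does not show the lack of an inexact or more distant site.

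Slc36a1 (chr11:55204350-55236330, plus strand, GENCODE M21) was at 87.9, 96.6, 72.9 and 75.9 CPM in male WT and at 57.0, 67.6, 63.8 and 58.5 CPM in male S64F/+ islets. In females it was at 113, 108, 98.8, 96.2 and 109 CPM in WT and at 66.2, 68.4, 62.2, 69.0 and 65.3 CPM in S64F/+ islets. The genotypes did not overlap in either sex, and all WT females but replicate 4 lay above all WT males. Slc36a1 fell by 0.43 on the log2 scale in males (SE 0.09, edgeR adjusted p = 0.00101) and by 0.66 in females (SE 0.08, edgeR adjusted p = 7.2e-06). Scaled by library totals alone, the male value was -0.22 (edgeR adjusted p = 0.195), a scaling that also raised the median of all genes by 0.219 in that comparison.

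Slc38a7 (chr8:95835920-95853539, minus strand) changed less. It was at 26.0, 27.8, 24.6 and 25.9 CPM in male WT and at 22.2, 21.3, 23.3 and 21 CPM in male S64F/+ islets, with no overlap. In females it was at 34.2, 26.2, 29.3, 29.7 and 31.4 CPM in WT and at 26.3, 21.8, 22.2, 24.9 and 27.1 CPM in S64F/+ islets, where WT replicate 2 lay within the S64F/+ range. It fell by 0.25 in males (SE 0.09, edgeR adjusted p = 0.0459) and by 0.30 in females (SE 0.08, edgeR adjusted p = 0.0114). The male call was narrow: leaving out 1 library ended it in 12 of 18 fits, with adjusted p up to 0.114 without male WT replicate 2, and DESeq2 gave -0.23 (adjusted p = 0.0727). It was lost as well without the libraries with intestinal (-0.24, edgeR adjusted p = 0.114) or kidney transcripts (-0.25, edgeR adjusted p = 0.0546). The female call was lost without female S64F/+ replicate 2 (-0.25, edgeR adjusted p = 0.0543).

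Slc38a9, the arginine sensor that sits with the Rag GTPases, did not pass in males (0.38, SE 0.19, edgeR adjusted p = 0.14) or in females (-0.08, SE 0.17, edgeR adjusted p = 0.788). Slc36a4, the PAT4 carrier, was at 34.8, 37.5, 32.8, 31.1 and 36.7 CPM in female WT and at 34.4, 29.1, 24.8, 27.4 and 28.3 CPM in female S64F/+ islets. Replicate 1 of the S64F/+ group lay inside the WT range, and the other 4 lay below it. Slc36a4 fell by 0.26 in females (SE 0.08, edgeR adjusted p = 0.0301), a call lost in 7 of 18 fits without 1 library, the highest adjusted p being 0.0781 without female S64F/+ replicate 3. Without the libraries with kidney transcripts it was -0.25 (edgeR adjusted p = 0.144). In males its log2 fold change was 0.02 (SE 0.09, edgeR adjusted p = 0.925). The other Slc36 genes, Slc36a2 and Slc36a3, were too scarce to test.

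Among 24 genes of amino acid sensing at the lysosome, 9 fell and 1 rose in males, and 7 fell and 3 rose in females, beside 12.3% and 11% of all genes that fell. Rragd, a Rag GTPase, fell by 0.85 in males (SE 0.11) and 0.88 in females (SE 0.10), from 74.8 to 41.6 CPM and from 75.1 to 40.7 CPM on average. Fnip2, a partner of folliculin, fell by 0.71 in males (SE 0.13) and 0.75 in females (SE 0.11). Folliculin itself (Flcn, -0.55 and -0.64) and Fnip1 (-0.46 and -0.50) also fell in both sexes; these 2 were singled out after their values were seen. The riser in males was Gatsl3, a sensor of arginine (1.20, SE 0.30, edgeR adjusted p = 0.0052), with mean levels of 0.954 and 2.21 CPM. The cystine exporter of lysosomes, Ctns, fell as well, by 0.27 in males (SE 0.10, edgeR adjusted p = 0.0459) and by 0.47 in females (SE 0.09, edgeR adjusted p = 0.00068). 

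**Figure D2:**
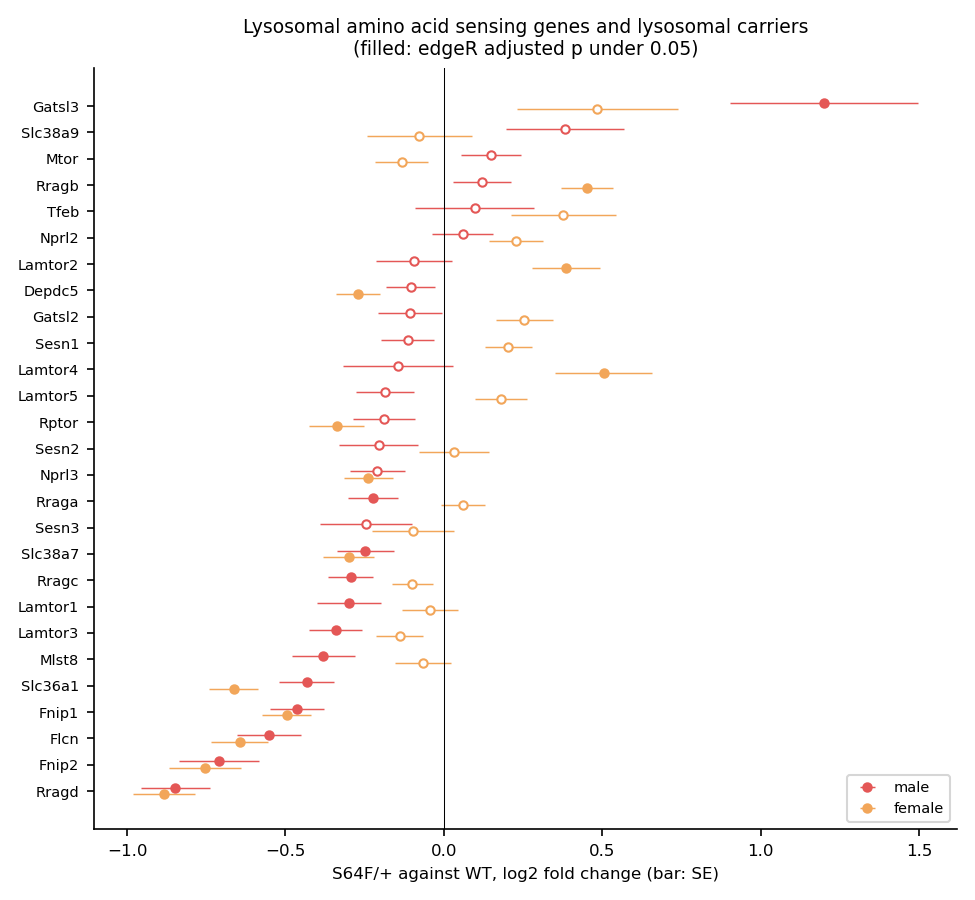
Log2 fold change of S64F/+ against WT (x axis, bars for the SE) for 24 genes of amino acid sensing at the lysosome and the carriers Slc36a1, Slc38a7 and Slc38a9 (y axis), in males and females, filled where the edgeR adjusted p was under 0.05. Rragd, Fnip2, Flcn, Fnip1 and Slc36a1 are lower with filled points in both sexes.

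Of the 7 carriers that rose in males, 2 belong to the Slc43 family. Slc43a3, a carrier of purine nucleobases (chr2:84936579-84958509, plus strand), was at 14.4, 18.5, 18.3 and 12.6 CPM in male WT and at 55.5, 52.8, 63.2 and 50 CPM in male S64F/+ islets. Females held 23.7, 23.7, 23.9, 13.6 and 21.6 CPM in WT and at 21.6, 36.4, 43.3, 32.3 and 24.9 CPM in S64F/+ islets. The male genotypes were far apart, whereas S64F/+ replicate 1 of the females lay within the WT range. Slc43a3 rose by 1.79 in males (SE 0.21, edgeR adjusted p = 8.1e-06) and by 0.57 in females (SE 0.18, edgeR adjusted p = 0.0319). The male effect exceeded the female one by 1.22 (SE 0.27, edgeR adjusted p = 0.0215). In that test of the difference 2 of the 44 carriers were called, both higher in males, which is 4.55% against 4.47% of all genes (2.87% higher and 1.6% lower). The female call was lost in 5 of 18 fits without 1 library, with adjusted p up to 0.101 without female S64F/+ replicate 3. Without the 4 female libraries with kidney transcripts it was 0.51 (edgeR adjusted p = 0.112). The call of the difference was lost without male WT replicate 4 (1.12, edgeR adjusted p = 0.059).

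Slc43a1 encodes LAT3, a facilitative carrier of branched-chain amino acids, and was scarce. It was at 0.111, 0.168, 0.266 and 0.114 CPM in male WT and at 1.07, 0.463, 0.933 and 1.00 CPM in male S64F/+ islets, or 20 and 177 counts in all. Females held 0.108, 0.236, 0.41, 0.355 and 0.26 CPM in WT and at 0.108, 0.353, 0.457, 0.173 and 0.22 CPM in S64F/+ islets, and these overlapped. Slc43a1 rose by 2.35 in males (SE 0.49, edgeR adjusted p = 0.00143), while the female value was -0.08 (SE 0.43, edgeR adjusted p = 0.927). The difference between the sexes was 2.42 (SE 0.65, edgeR adjusted p = 0.0432) and was lost in 12 of 18 fits without 1 library, with adjusted p up to 0.1 without male WT replicate 4. It was also lost without the intestinal libraries (2.39, edgeR adjusted p = 0.0861) and without the kidney ones (2.00, edgeR adjusted p = 0.137). Slc43a2, the related LAT4, was 1 of the 10 most abundant carriers and did not pass in either sex (0.06 and -0.02).

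Slc1a5 encodes ASCT2, which exchanges other neutral amino acids for glutamine (chr7:16781340-16798274, plus strand). It was at 10.7, 8.78, 7.58 and 9.31 CPM in male WT and at 18.2, 17.7, 16.9 and 16.7 CPM in male S64F/+ islets, again with no overlap. Females held 9.37, 11.4, 10.9, 7.65 and 11.3 CPM in WT and at 10.4, 15.1, 14.5, 11.5 and 10.1 CPM in S64F/+ islets, which overlapped. It rose by 0.94 in males (SE 0.15, edgeR adjusted p = 0.000153), and the female value of 0.28 (SE 0.13, edgeR adjusted p = 0.143) did not pass. The difference between those effects, 0.66 (SE 0.20, edgeR adjusted p = 0.0628), did not pass either. It passed with the replicate number as a block (0.67, edgeR adjusted p = 0.0473), with DESeq2 (0.67, adjusted p = 0.0153) and with library totals (0.91, edgeR adjusted p = 0.0248). Library totals also raised the median of all genes by 0.240 in that comparison and made 97.2% of its calls higher, against 64.2% in the reported fit. Slc1a4, a relative of Slc1a5 and the ASCT1 exchanger of alanine, serine and cysteine, was at 10.4 ± 1.00 (SD, n = 4) and 13.8 ± 0.83 CPM (SD, n = 4) in males, ranges apart, and did not pass (0.41, edgeR adjusted p = 0.0837). It passed in males with only the 2 groups fitted (0.42, edgeR adjusted p = 0.00649) and with library totals (0.64, edgeR adjusted p = 0.00292).

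Slc38a1 encodes SNAT1, a sodium-driven carrier of glutamine and alanine. It was at 1.05, 2.36, 1.73 and 2.47 CPM in male WT and at 5.69, 6.02, 5.98 and 5.5 CPM in male S64F/+ islets, a rise of 1.59 (SE 0.41, edgeR adjusted p = 0.00675). In females the values ran from 1.11 to 2.91 CPM in WT and from 0.788 to 4.45 CPM in S64F/+ islets, and the value of 0.01 did not pass (SE 0.36, edgeR adjusted p = 0.99). The difference between the sexes, 1.58 (SE 0.54, edgeR adjusted p = 0.0887), did not pass. It passed with DESeq2 (1.59, adjusted p = 0.0271), and with edgeR without female WT replicate 4 (1.75, adjusted p = 0.0414) or female S64F/+ replicate 2 (1.99, adjusted p = 0.0263). Slc38a4, the SNAT4 carrier and 1 of the most abundant, was at 275, 271, 249 and 292 CPM in male WT and at 321, 401, 318 and 390 CPM in male S64F/+ islets. It rose by 0.40 in males (SE 0.12, edgeR adjusted p = 0.0201), a call lost in 3 of 18 fits without 1 library (adjusted p up to 0.0712 without male S64F/+ replicate 2). In females it was at 284 ± 52.8 (SD, n = 5) and 342 ± 19.5 CPM (SD, n = 5), and 0.27 did not pass (edgeR adjusted p = 0.0835). With the replicate number as a block, the female value was 0.29 (edgeR adjusted p = 0.0465). The other Slc38 carriers tested, Slc38a2, Slc38a3, Slc38a6, Slc38a8, Slc38a10 and Slc38a11, passed in neither sex.

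Slc7a3 encodes CAT3, a carrier of arginine and lysine. It was at 1.16, 1.32, 1.20 and 0.95 CPM in male WT and at 2.54, 3.18, 3.10 and 3.59 CPM in male S64F/+ islets, a rise of 1.41 (SE 0.36, edgeR adjusted p = 0.00611). In females the WT libraries lay between 1.02 and 2.29 CPM, and S64F/+ replicates 2 and 3, at 3.35 and 3.32 CPM, stood above the other 3 of their group at 1.08 to 1.21 CPM. The female value was 0.25 (SE 0.31, edgeR adjusted p = 0.626). The other cationic carriers, the abundant Slc7a2 (0.19 and 0.17) and Slc7a1 (0.27 and -0.01), did not pass in either sex. In males Slc7a1 passed with DESeq2 (0.28, adjusted p = 0.0376) and with only the 2 groups fitted (0.28, edgeR adjusted p = 0.0206). It also passed there with a filter of 1 CPM in 4 libraries (0.28, edgeR adjusted p = 0.0409) and the replicate block (0.27, edgeR adjusted p = 0.0438). Slc1a2, the glutamate carrier of astrocytes, rose by 2.00 in males (SE 0.65, edgeR adjusted p = 0.0277) at a very low level, from 0.0738 to 0.315 CPM on average, and the ranges overlapped. Its call was lost in 5 of 18 fits without 1 library (adjusted p up to 0.0885 without male WT replicate 3), and without the 2 libraries with intestinal transcripts (2.01, edgeR adjusted p = 0.0862). Slc1a2 passed the filter on low counts mainly through male S64F/+ libraries, the group where it was high.

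Markers of several other cell types also rose in males. Of 10 markers of stellate cells and fibroblasts, 9 rose in males and none fell, and their summed level was 244 to 566 CPM in male WT and 1612 to 2453 CPM in male S64F/+ islets. Of 9 endothelial markers 6 rose and 1 fell, with sums of 503 to 706 CPM and 875 to 1023 CPM. Of 8 Schwann cell markers 3 rose, with sums of 20.2 to 27.0 CPM and 46.8 to 60.7 CPM, 8 of 10 ductal markers rose, and 6 of 9 macrophage markers rose with 1 lower. In females 1 of 10 stellate markers rose, and female S64F/+ replicates 2 and 3 held the highest sums of their group, 975 and 1084 CPM for stellate cells and 59.4 and 84.8 CPM for Schwann cells. This was not particular to those cells. The same 2 libraries were the highest of their group for endothelial (712 and 825 CPM) and acinar markers (27366 and 39038 CPM). They were not the 2 highest for the other cell types counted. Among the carriers that rose in males, these 2 libraries were also the highest of their group for Slc43a3, Slc43a1, Slc1a5, Slc7a3 and Slc1a2. They were not the 2 highest for Slc38a1 (2.58, 4.45, 1.83, 1.42 and 0.788 CPM), where replicate 2 was the highest, or for Slc38a4 (332, 329, 355, 370 and 324 CPM). Of 6 delta cell markers 4 rose in males and 5 in females, of 3 PP cell markers 2 rose in females, and of 6 lymphocyte markers 2 rose and 1 fell in males and 1 rose and 1 fell in females. The 10 acinar and 5 red blood cell markers were not called in either sex. The part of these cell types in the carrier results was not tested.

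**Figure D3:**
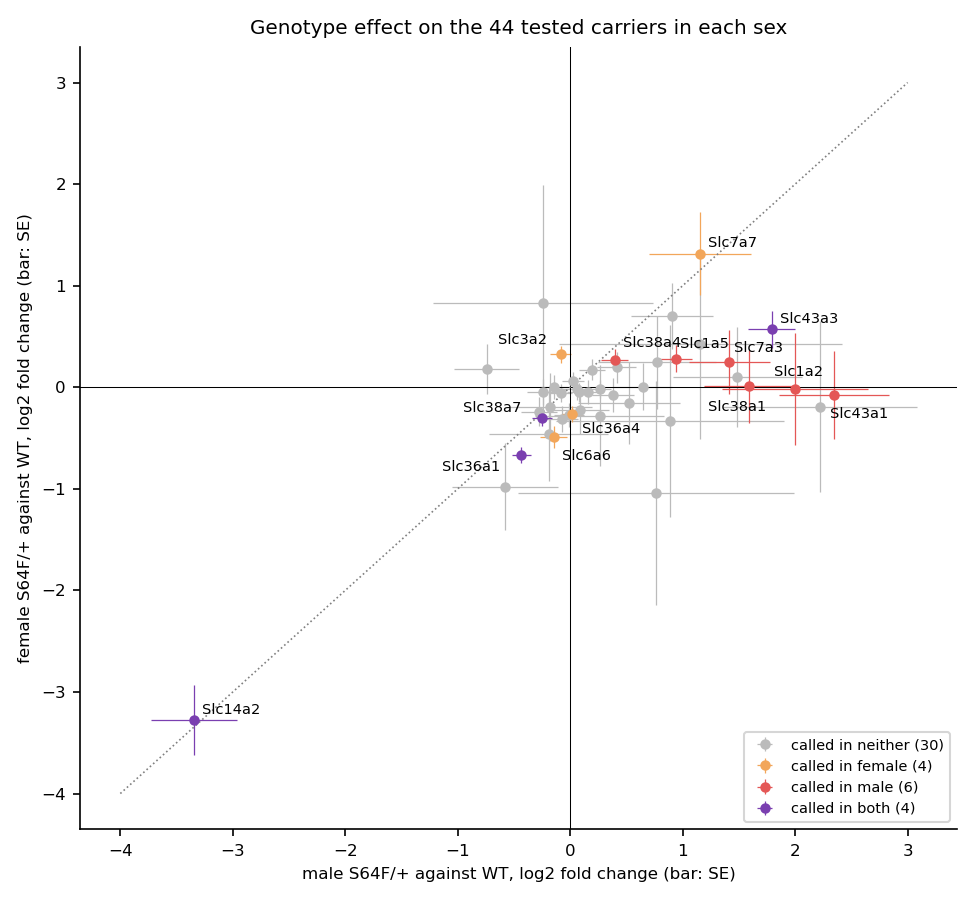
Log2 fold change of S64F/+ against WT in males (x axis) and females (y axis) for the 44 tested carriers, with SE bars and colours for the sex in which a carrier was called; the dotted line marks equal effects. Slc14a2 lies at the lower left near the line, and Slc43a3, Slc43a1, Slc38a1, Slc1a2 and Slc7a3 lie to the right with female values near or below 0.6.

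In females the heavy chain Slc3a2, or 4F2hc, which carries the Slc7a5 to Slc7a8 light chains to the cell surface, was higher. It was at 158, 149, 160, 187 and 175 CPM in female WT and at 181, 176, 227, 217 and 236 CPM in female S64F/+ islets. The S64F/+ replicates 3, 4 and 5 lay above all WT libraries, and replicates 1 and 2 lay within the WT range. Slc3a2 rose by 0.32 (SE 0.08, edgeR adjusted p = 0.00922). In males it was at 167, 171, 165 and 172 CPM in WT and at 155, 156, 164 and 162 CPM in S64F/+ islets, lower with no overlap, but the value of -0.08 (SE 0.09, edgeR adjusted p = 0.548) did not pass. The difference between the sexes was -0.41 (SE 0.12, edgeR adjusted p = 0.0628), and with the replicate number as a block it passed (-0.40, edgeR adjusted p = 0.0431). The female call was lost when the female groups were fitted alone (0.32, edgeR adjusted p = 0.0609).

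Of the 4 tested light chains of Slc3a2, Slc7a5 to Slc7a8, Slc7a7 was called. Slc7a7, or y+LAT1, which exchanges cationic for neutral amino acids, was at 2.05, 2.67, 1.72, 2.58 and 2.50 CPM in female WT and at 5.75, 5.73, 5.11, 6.94 and 5.26 CPM in female S64F/+ islets. The groups did not overlap, and it rose by 1.32 (SE 0.41, edgeR adjusted p = 0.0283). In males it was at 1.33, 7.07, 1.20 and 1.56 CPM in WT and at 5.08, 4.45, 11.2 and 4.62 CPM in S64F/+ islets, where the high values of 7.07 and 11.2 belong to the libraries with intestinal transcripts. With those libraries the male value was 1.15 (SE 0.45, edgeR adjusted p = 0.068) and without them 1.79 (edgeR adjusted p = 1.98e-05). Leaving out 1 library ended the female call in 3 of 18 fits (adjusted p up to 0.0664 without female WT replicate 1), and so did leaving out the libraries with kidney transcripts (1.35, edgeR adjusted p = 0.148). Macrophage markers, 5 of 9 of which rose in females, had sums of 79.7 to 115 CPM in female WT and 102 to 178 CPM in female S64F/+ islets, and their part was not tested. Slc7a5, Slc7a6 and Slc7a8 did not pass in either sex, with log2 fold changes from -0.24 to 0.07. Slc7a5 was at 104, 95.1, 102 and 99.6 CPM in male WT and at 85, 76.7, 88.9 and 88.9 CPM in male S64F/+ islets, ranges apart. In males it passed with only the 2 groups fitted (-0.23, edgeR adjusted p = 0.014) and with the replicate block (-0.24, edgeR adjusted p = 0.0235).

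Slc6a6, the taurine carrier TauT, was at 300, 322, 299, 268 and 310 CPM in female WT and at 268, 213, 146, 233 and 208 CPM in female S64F/+ islets. Replicate 1 of the S64F/+ group just reached the lowest WT value, the other 4 lay below it, and replicate 3 was the lowest. Slc6a6 fell by 0.49 in females (SE 0.11, edgeR adjusted p = 0.00368). In males it was at 296 ± 9.68 (SD, n = 4) and 268 ± 5.52 CPM (SD, n = 4), ranges apart, with a value of -0.15 (SE 0.12, edgeR adjusted p = 0.409) that did not pass. Alpha cell markers rose in females for 8 of 9 genes and in males for none, and their female sums were 34252 to 42557 CPM in WT and 59917 to 83070 CPM in S64F/+ islets. Their part in the female results was not tested.

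Slc6a19 encodes B0AT1, the neutral amino acid carrier of gut and kidney brush borders, and its reading depended on the 2 libraries with intestinal transcripts. It was at 14.4, 30.5, 14.9 and 13.1 CPM in male WT and at 5.48, 5.65, 30.2 and 7.36 CPM in male S64F/+ islets. It was at 9.87, 10.6, 12.9, 12.5 and 13.2 CPM in female WT and at 8.44, 7.54, 4.40, 5.00 and 4.58 CPM in female S64F/+ islets. The female groups did not overlap, and among males only S64F/+ replicate 3 lay above the WT libraries other than replicate 2. With all libraries neither sex passed (-0.58, edgeR adjusted p = 0.397, and -0.98, edgeR adjusted p = 0.118). Without male WT replicate 2 and male S64F/+ replicate 3, Slc6a19 fell by 1.20 in males (edgeR adjusted p = 0.00122) and by 0.98 in females (edgeR adjusted p = 0.000774). An antisense gene overlaps Slc6a19, and strand was not settled. Tmem27, the beta cell protein also known as collectrin that brings B0AT1 to the membrane, was singled out after its values were seen. It rose by 0.49 in females (SE 0.11, edgeR adjusted p = 0.00442), was at -0.19 in males (SE 0.13, edgeR adjusted p = 0.294), and differed between the sexes by -0.68 (SE 0.17, edgeR adjusted p = 0.0329).

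The same 2 male libraries held most of the reads of other carriers of absorptive epithelium. Slc7a9, the cystine exchanger, was at 5.29 and 6.10 CPM there and at 0 to 0.165 CPM in the other 16. Slc7a15 was at 2.77 and 5.25 CPM, and Slc6a20a, a proline carrier, at 8.44 and 19.5 CPM against at most 1.78 CPM elsewhere. Also higher in both than in the other 16, a pattern not counted over all genes, were Slc6a19, Slc7a7 and Slc3a1 (7.99 and 11.1 CPM), the partner of Slc7a9. So were the serotonin carrier Slc6a4 (1.92 and 1.68 CPM) and the creatine carrier Slc6a8 (52.2 and 60.8 CPM). Since 1 library was WT and 1 was S64F/+, these levels did not follow genotype.

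**Figure D4:**
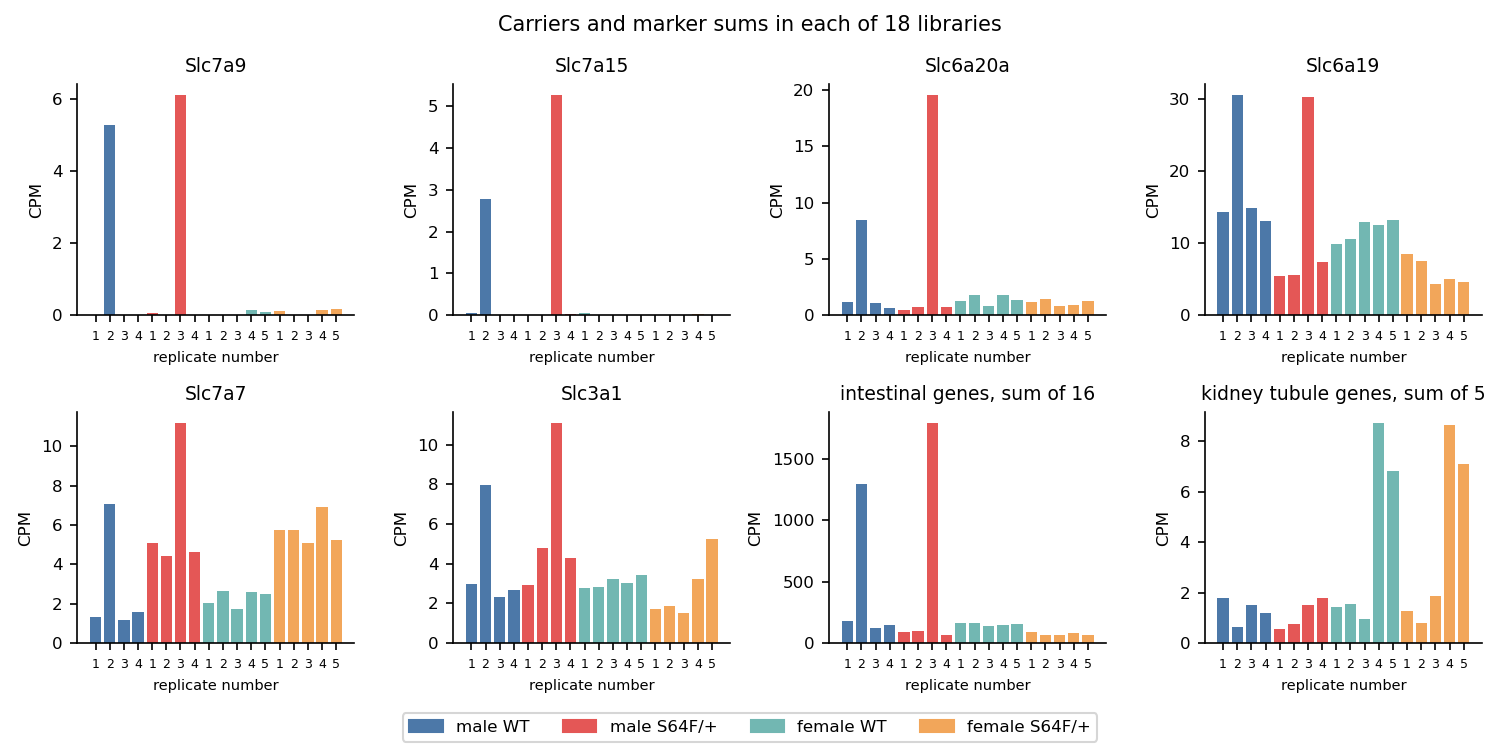
Level of 6 carriers and the summed level of 16 intestinal genes and 5 kidney tubule genes (y axes, TMM-scaled CPM) in each of the 18 libraries (x axes, replicate number, coloured by group). Male WT replicate 2 and male S64F/+ replicate 3 are highest for the 6 carriers and the intestinal genes, and female replicates 4 and 5 of both genotypes are highest for the kidney genes.

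Some carriers were higher in all 4 female libraries with kidney transcripts than in the other 14, a pattern not counted over all genes. Slc6a18, a neutral amino acid carrier of kidney, was at 0.118 to 0.521 CPM there, and Slc7a13, a light chain of kidney tubules, was at 0.0708 to 0.135 CPM there and had no read elsewhere. The others were Slc6a13, a GABA carrier, and the more abundant Slc7a4 and Slc7a5. For Slc6a13 the margin was narrow, 0.166 CPM in female WT replicate 4 against 0.164 CPM in female WT replicate 3. Slc7a4, a relative of the cationic carriers, was at 48.3 and 51.3 CPM in the WT libraries of that set and 39.8 and 39.2 CPM in the S64F/+ ones, against 27.2 to 39.2 CPM elsewhere. With the replicate number as a block, Slc7a4 passed in females (-0.23, edgeR adjusted p = 0.0437) and in males (-0.28, edgeR adjusted p = 0.0219).

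Between the sexes, WT islets differed for 1 carrier, which is 2.27% against 2.36% of all genes (1.73% higher and 0.637% lower). This was Slc36a1, lower in males by 0.33 (SE 0.08, edgeR adjusted p = 0.0381), and it was lost in 9 of 18 fits without 1 library (adjusted p up to 0.166 without male WT replicate 4) and without the libraries with kidney transcripts (-0.35, edgeR adjusted p = 0.0754). S64F/+ islets differed for 8 carriers, 7 higher and 1 lower in males, which is 18.2% against 16.1% of all genes (8% higher and 8.12% lower). The same 8 were those whose ranges were apart, against 16.2% of all genes (7.91% higher and 8.27% lower), and between WT sexes 3 carriers were apart, 2 higher and 1 lower, against 7.46% (4.21% higher and 3.25% lower). Besides Slc43a3, Slc43a1, Slc1a5 and Slc38a1, whose male S64F/+ values are given above, the higher ones were Slc6a17, Slc36a4 and Slc6a2. The lower one was Slc3a2 (-0.38, SE 0.09, edgeR adjusted p = 0.00917). Without the libraries with kidney transcripts, edgeR adjusted p was 0.0541 for Slc3a2, 0.0752 for Slc38a1, 0.0879 for Slc43a1 and 0.106 for Slc1a5, and without those with intestinal transcripts 0.0528 for Slc1a5 and 0.121 for Slc6a2. Slc1a5 was lost in 4 of 18 fits without 1 library (adjusted p up to 0.0598 without male S64F/+ replicate 1).

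Slc6a17 encodes NTT4, a vesicular carrier of neutral amino acids. It was at 102, 124, 134 and 137 CPM in male and at 85.1, 80.1, 55.4, 88.4 and 87.7 CPM in female S64F/+ islets, with no overlap and a difference of 0.65 (SE 0.12, edgeR adjusted p = 0.00305). In WT islets it was at 119, 109, 104 and 113 CPM in males and at 67.8, 89.7, 86.7, 76.7 and 88.8 CPM in females, also apart, but the difference of 0.44 (SE 0.12, edgeR adjusted p = 0.0644) did not pass. With DESeq2 that difference passed (0.45, adjusted p = 0.0178). Slc36a4 was at 38.7, 44.7, 39.7 and 45.6 CPM in male S64F/+ islets, above all female S64F/+ libraries (0.55, SE 0.09, edgeR adjusted p = 0.0009). The noradrenaline carrier Slc6a2, a gene of sympathetic nerve endings, was scarce, at 0.656, 0.34, 0.912 and 0.269 CPM in male and 0 to 0.25 CPM in female S64F/+ islets. Its difference of 2.49 (SE 0.79, edgeR adjusted p = 0.0393) was lost in 9 of 18 fits without 1 library (adjusted p up to 0.115 without male S64F/+ replicate 3) and with the replicate number as a block (2.19, edgeR adjusted p = 0.078). Slc6a2 passed the filter on low counts only through the male S64F/+ libraries, the group where it was high. Without that filter the difference was 2.48 and did not pass (edgeR adjusted p = 0.0664).

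Levels of different genes were compared per length, as the deposited FPKM values (fragments scaled by gene length and library size) averaged over 18 libraries. Slc7a8, the LAT2 exchanger of neutral amino acids, was highest at 39.8 FPKM, above Slc7a2 in 17 of 18 libraries. Slc7a2 followed at 28.3, the cationic relative Slc7a14 at 27.4, Slc38a4 at 25.5, Slc7a5 at 23.0, Slc6a6 at 21.1, Slc3a2 at 19.2 and Slc38a10 at 18.6 FPKM. Neighbours in this stretch changed places between libraries: Slc7a2 exceeded Slc7a14 in 8 of 18, Slc7a14 exceeded Slc38a4 in 12, and Slc3a2 exceeded Slc38a10 in 8. Slc38a10 exceeded Slc38a2 (12.2 FPKM) in all 18, and Slc38a2 exceeded Slc43a2 (10 FPKM) in 17. In all, 10 carriers averaged at least 10 FPKM, 12 lay from 1 to 10 and 41 below 1, among them Slc14a2 at 0.569 FPKM. Thus Slc7a8 and its heavy chain Slc3a2 were both abundant, whereas the heavy chain Slc3a1 averaged 1.67 FPKM.

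**Figure D5:**
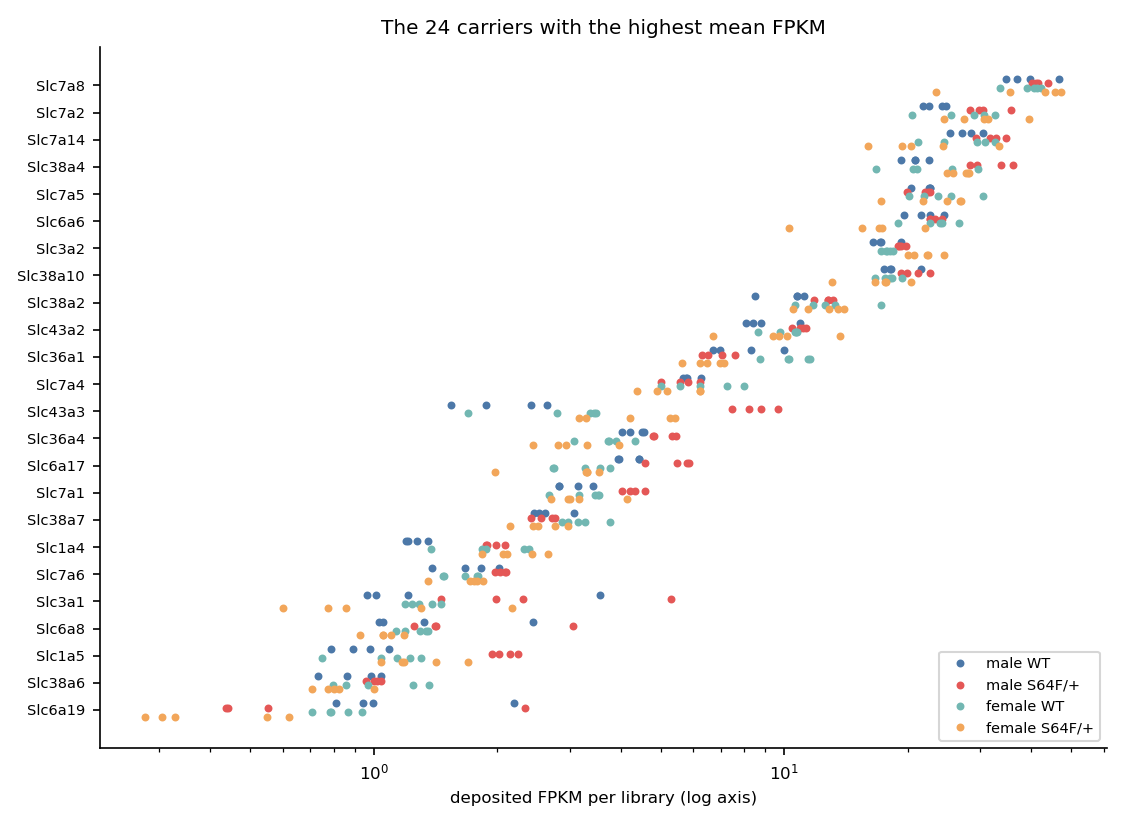
Deposited FPKM of each library (x axis, log scale) for the 24 carriers with the highest mean over 18 libraries (y axis), coloured by group. Slc7a8 is at the top with a mean of 39.8 FPKM, the next 7 overlap between 10.3 and 39.4 FPKM, and Slc43a3 and Slc1a5 show male S64F/+ libraries apart from male WT.

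The 19 carriers with too few reads for the test held 1 to 556 counts each over all libraries, and 17 of them at most 96. They included the urea channel Slc14a1, the glutamate carriers Slc1a6 and Slc1a7, the Slc36 genes Slc36a2 and Slc36a3, the GABA and betaine carriers Slc6a12 and Slc6a13, the dopamine carrier Slc6a3, the glycine carrier Slc6a5, the Slc6 genes Slc6a7, Slc6a14, Slc6a18 and Slc6a21, and the light chains Slc7a9, Slc7a10, Slc7a12, Slc7a13 and Slc7a15. The tested carriers called in no comparison of the reported fit included Slc1a1 and Slc1a3 for glutamate, Slc6a8 for creatine, Slc6a9 for glycine, Slc6a11 for GABA, and Slc6a15, Slc6a16 and Slc6a20b. Without the 2 libraries with intestinal transcripts, Slc1a1 rose in males (1.38, edgeR adjusted p = 0.0206), against 0.91 (edgeR adjusted p = 0.0746) with them. Slc6a15, a carrier of branched-chain amino acids and proline, was at 0.872 ± 0.41 (SD, n = 4) and 2.51 ± 0.72 CPM (SD, n = 4) in male WT and S64F/+ islets, ranges apart (1.49, edgeR adjusted p = 0.062). It passed in males with DESeq2 (1.52, adjusted p = 0.0219) and with only the 2 groups fitted (1.49, edgeR adjusted p = 0.00749).

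Genes that handle the cargo of these carriers were counted in lists. Over all tested genes, 15.4% rose and 12.3% fell in males, and 10.2% rose and 11% fell in females. Of 15 enzymes of glutamine, glutamate and GABA, 1 rose and 4 fell in males, and 3 rose and 3 fell in females. Glul, glutamine synthetase, fell by 1.22 in males (SE 0.15, edgeR adjusted p = 8.79e-06) and 0.90 in females (SE 0.13, edgeR adjusted p = 6.98e-05), and Aldh5a1, the last enzyme of GABA breakdown, by 0.95 and 0.57. Gpt2, an alanine transaminase, rose by 0.73 and 0.26. Of 18 enzymes of urea, arginine and creatine, 5 rose in males and 3 in females, and none fell. They included Nos2, a nitric oxide synthase that consumes arginine (2.69 in males, 0.00 in females, difference 2.69, edgeR adjusted p = 0.015), and Sat1 of polyamine turnover (0.72 and 0.48).

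Of 27 targets of the amino acid response, 5 rose and 1 fell in males, where 15.4% of all genes rose and 12.3% fell, and 7 rose in females, where 10.2% rose and 11% fell. Trib3 rose in both sexes (1.25 and 0.78), and the glycyl-tRNA synthetase Gars fell by 0.29 in males and rose by 0.20 in females (difference -0.49, edgeR adjusted p = 0.0158). Of 17 genes of branched-chain amino acid breakdown, 2 rose and 4 fell in males, and 1 rose and 2 fell in females. Bckdhb, a subunit of the branched-chain ketoacid dehydrogenase, rose by 0.87 and 1.31, Mccc2 fell by 0.40 in males, with a female value of -0.13 that did not pass, and Acadsb fell by 0.32 and 0.21. Bcat1, the cytosolic aminotransferase, rose in males by 2.84 at 0.0562 and 0.491 CPM. Of 12 other amino acid and peptide carriers tested, 3 rose and 1 fell in males, and 2 rose and 1 fell in females, with Slc38a5 at 2.10 and 2.19 and the lysosomal peptide carrier Slc15a3 at 1.49 and 0.48. Of 6 accessory proteins, 1 rose in males, Sdc1 (1.38), and 2 rose in females, Tmem27 and Bsg. Of 7 aquaporins and renal partners tested, 1 rose and 3 fell in males and 3 fell in females, with the water channels Aqp4 (-1.50 and -1.60) and Aqp11 (-0.78 and -0.67) lower and Aqp5 higher in males (3.19).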

How the data were processed

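RNA-seq of 18 islet libraries was analysed, grouped by sex and genotype from the sample titles. The authors deposited raw counts per gene and FPKM values. STAR, featureCounts, DESeq2 and the build GRCm38 appear in the submitters' processing notes, without versions; no annotation or strand setting is stated. The deposited FPKM equal the count divided by the library total and by 1 length per gene for all 33562 genes with a count, within 1 base; they were used only for levels. The 99 spike-in rows, all at 0, were left out.

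Counts were tested in R 4.3.3 with edgeR 4.0.16 (filterByExpr with minimum count 10 and minimum total 15, TMM, robust quasi-likelihood F test, two-sided, Benjamini-Hochberg within each contrast over 18364 genes), with 1 coefficient for each of 4 groups in a fit of all 18 libraries. DESeq2 1.42.0, other scalings, filters, fits of 2 groups, a replicate block and leaving out libraries were alternatives. A chi-square test of counts found no pair of replicates within counting noise. The fit was tested on simulated data.

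The replicate numbers were checked for pairing by the correlation of deviations from the group means. In females it was 0.110 to 0.418 in all 5 pairs, which met the criterion for pairs, though no label states it. The library of the same number was the best match for female replicates 1, 2 and 5, but not for 3 and 4. Replicates 4 and 5 of both genotypes also share kidney transcripts, so these correlations do not show that the libraries were paired. In males the correlation was -0.249 to 0.189. The reported fit has no block, and blocked values that change a call stand beside the results or here. In males the block gained Slc6a9 (0.69, edgeR adjusted p = 0.0474), Slc6a15 (1.57, edgeR adjusted p = 0.0159) and Slc7a7 (1.50, edgeR adjusted p = 0.0452). Between S64F/+ sexes it gained Slc7a1 (0.28, edgeR adjusted p = 0.0384).

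The members and lists were chosen with earlier results of these data known. Named were Slc14a2, all called members, the 10 highest by FPKM and, of each list, up to 2 called genes per direction with the smallest p in males. Of the 63 members, 24 have a gene on the opposite strand, so their counts may be shared. Coordinates are from GENCODE M21 and promoters from RefSeq.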

Additional observations from a re-analysis of the deposited data

Results flagged for a closer look

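The carriers checked here were 25, the 16 called in any comparison and others picked by name. Most of those others were high in the libraries with intestinal or kidney transcripts. The share flagged therefore cannot be set against the 1 in 20 that chance gives. In groups of 4 or 5 libraries, 1 library lay far from the rest of its group in 17 of 98 gene and group pairs. Of these, 13 were high values in male WT replicate 2 or male S64F/+ replicate 3, the libraries with intestinal transcripts. In male WT replicate 2 these were Slc3a1 (7.99 CPM), Slc6a19 (30.5), Slc6a20a (8.44), Slc7a7 (7.07), Slc7a9 (5.29) and Slc7a15 (2.77). In male S64F/+ replicate 3 they were Slc6a4 (1.68 CPM), Slc6a18 (0.0405, from 2 counts), Slc6a19 (30.2), Slc6a20a (19.5), Slc7a7 (11.2), Slc7a9 (6.10) and Slc7a15 (5.25).

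The other 4 were in females. Slc43a3 was low in female WT replicate 4, at 13.6 CPM against 21.6 to 23.9 CPM in the rest of the group. Slc6a17 was low in female S64F/+ replicate 3, at 55.4 CPM against 80.1 to 88.4 CPM. Slc6a18 was high in female WT replicate 4, at 0.521 CPM, 1 of the libraries with kidney transcripts. Slc7a15 had reads in 1 library of its group, female S64F/+ replicate 4, at 0.0384 CPM, from 2 counts. The rule flags any carrier with reads in only 1 library of a group, whatever its level. This also holds for Slc6a18 in male S64F/+ replicate 3 and for Slc7a9 in male WT replicate 2.

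The genotype effect differed between the sexes for Slc43a3 (1.22 on the log2 scale, higher in males) and Slc43a1 (2.42, higher in males), by the test of the difference itself.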

How the results depend on the processing

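No called log2 fold change of a carrier reversed: of 242 alternative fits other than leaving out 1 library, 208 kept direction and call and 34 lost the call, and of 522 fits without 1 library 451 kept both and 71 lost the call. Of 29 called results, 12 were lost in at least 1 fit without 1 library; the cause was not tested. Counts of called carriers that moved by more than 1.5 times are given next. In males, 7 higher and 3 lower became 15 and 1 with library totals, 11 higher and 5 lower with the replicate block, and 5 lower with only the 2 groups fitted. Over all genes library totals made 86.4% of male calls higher, against 55.6%. In females, 3 higher became 1 with only the 2 groups and 1 without the 4 libraries with kidney transcripts. For the difference between the sexes, 2 higher became 1 without a filter, with a filter of 1 CPM in 4 libraries, and without either set of libraries with foreign transcripts, and 0 lower became 1 with DESeq2 and 1 with the replicate block. The higher count was 3 with DESeq2, library totals or the block. Between WT sexes, 0 higher became 3 with DESeq2, and 1 lower became 2 with DESeq2, 0 without a filter, 2 without the libraries with intestinal transcripts and 0 without those with kidney transcripts. Between S64F/+ sexes, 1 lower became 0 with library totals and 0 without the kidney set. Leaving out 1 library gave 6 to 9 higher and 2 to 6 lower in males, 1 to 3 and 3 to 6 in females, 0 to 4 and 0 to 1 for the difference, 0 to 1 and 0 to 2 between WT sexes, and 5 to 9 and 1 to 2 between S64F/+ sexes. The replicate block gave 4 higher and 6 lower in females. The 2 sets of libraries with foreign transcripts were chosen after the data were seen; without the kidney set, 3 female libraries remained per group. Depth limits the carriers below 1 CPM, whose fold changes rest on few counts.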
